A study of Mus musculus with 6 samples.

Results

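The cytosolic ribosome of mouse lung endothelial cells was read through its protein genes. The 83 genes were the protein-coding rows whose symbol names a large subunit protein (Rpl), a small subunit protein (Rps, and Rpsa) or a stalk protein (Rplp), among 18956 genes in all. The name rule first found 97 symbols, from which 14 were left out (S6 kinase genes, Rps19bp1 and symbols of pseudogenes). They comprised 47 large subunit, 33 small subunit and 3 stalk genes on 19 chromosomes. Rpl3l and Rpl10l, tissue-restricted relatives of Rpl3 and Rpl10, were not used here.

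Bulk RNA sequencing covered 6 libraries. Cre-negative wild-type lung endothelial cells gave 3 of them (WT 1 to 3), and Cre-positive cells of genotype CSE-KO gave the other 3 (CSE-KO 1 to 3). CSE is cystathionine gamma-lyase, the enzyme encoded by Cth, which releases cysteine from cystathionine. The sources used here do not give the Cre driver, the deleted part of Cth, the age and sex of the animals, or the origin of the replicates (animals or cultures). P-values therefore reflect only how far these libraries spread, and that spread may be technical.

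A ribosome has a small subunit that reads the mRNA and a large subunit that joins amino acids, and each holds ribosomal RNA with a fixed set of proteins. Because the proteins are needed in nearly equal numbers, their genes are usually expressed together, and excess protein that finds no ribosomal RNA is degraded. Most of their mRNAs begin with a C followed by an unbroken run of pyrimidines (the TOP motif), through which mTORC1 and the RNA-binding protein LARP1 set how strongly they are translated and how long they last. The mRNA levels reported here do not measure that translation.

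Cth itself had 29, 27 and 26 normalized counts (read counts scaled for library size) in WT and 49, 43 and 63 in CSE-KO. It was higher in every library labelled CSE-KO (log2 fold change 0.89, SE 0.18, adjusted p = 0.00079), so the targeted gene's level went against the label, and all directions below are of the libraries labelled CSE-KO over those labelled WT. The files do not show which exons the reads came from. Library totals were 6028772 to 6052275 normalized counts in WT and 5698922 to 5765008 in CSE-KO. Of 10 endothelial markers, 9 fell and Emcn was not called, and their summed counts were 17263 to 17671 in WT and 11857 to 12535 in CSE-KO. All 10 macrophage markers rose, with sums of 138 to 178 in WT and 1474 to 1814 in CSE-KO, and Adgre1, Marco and Itgam were at 0 in all WT libraries. Mesothelial marker sums were 4 to 9 in WT and 104 to 157 in CSE-KO, and mural ones 909 to 952 and 1459 to 1532. Within the mural list Acta2, Tagln and Myh11 rose, while Cspg4 and Pdgfrb fell. Epithelial (7 to 24), lymphocyte (1 to 3) and erythroid (3 to 10) sums were low in all 6 libraries, while fibroblast sums were 1168 to 1267 in WT and 1128 to 1463 in CSE-KO, with Dcn higher and Col3a1 lower. The part of these cell types in the ribosomal protein values was not tested, and in bulk samples fewer cells of a type and less RNA per cell cannot be told apart.

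A run of at least 7 pyrimidines near the transcription start, which the choice by name did not use, was more frequent in these genes than among all tested genes, but most of the matched windows lacked it. Windows from RefSeq (GRCm38.p6) were matched for 63 of the 83 genes. The sequences below run from 10 bases before the annotated start to 20 bases from it, so that the eleventh letter is the first transcribed base, and capitals mark the longest unbroken run of C or T. They were chosen, with values known, to show 5 of the largest rises, 3 genes with negative log2 fold changes, and Rps6 and Rpl28 as genes whose run crosses the start.
Rps15a, chr7:118116128-118116157, minus strand: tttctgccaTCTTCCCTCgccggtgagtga
Rpl10a, chr17:28328461-28328490, plus strand: gCCCCCCCagcggccgcaaactgcagcgcc
Rpl9, chr5:65391412-65391441, minus strand: gggCCCTgacggattacaagaacgtgatga
Rpl18, chr7:45718061-45718090, plus strand: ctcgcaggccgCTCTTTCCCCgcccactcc
Rps19, chr7:24884582-24884611, plus strand: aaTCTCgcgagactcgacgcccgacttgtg
Rps6, chr4:86857348-86857377, minus strand: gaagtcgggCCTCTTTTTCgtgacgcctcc
Rpl28, chr7:4792955-4792984, plus strand: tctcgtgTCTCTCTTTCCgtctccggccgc
Rpl22l1, chr3:28805498-28805527, plus strand: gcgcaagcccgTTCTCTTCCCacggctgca
Rpl31, chr1:39367841-39367870, plus strand: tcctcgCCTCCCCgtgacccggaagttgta
Rpl39, chrX:37085203-37085232, minus strand: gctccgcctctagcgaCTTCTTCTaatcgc

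In Rps15a, Rpl28, Rps6 and Rpl31 the run reached across the annotated start into the mRNA. In Rpl10a the run lay wholly before the start, and in Rpl9 and Rps19 it was 4 bases long. A run of at least 7 pyrimidines stood in 29 of the 63 windows (46.0%), compared with 17.5% of 10204 windows of tested genes and 17.9% of all 27025 windows. The letters CTTTCC in the sense direction, which Rpl18 and Rpl28 carry, stood in 10 of the 63 windows (15.9%), against 1.22% of tested genes. In the wider 300 bases, 250 before the start and 50 from it, CTTTCC was found on either strand in 49.2% of the 63, 26.6% of tested genes and 26.3% of all windows. CCGGAAGT, a form of the ETS family site, was found on either strand in 19.0%, 8.49% and 4.0%. Members with a run of at least 7 had a median log2 fold change of 0.15 (28 tested) and those without one of 0.13 (32 tested). The run also stood in Rpl22l1 and Rpl31, which were lower in CSE-KO. An annotated start can lie a few bases from the one used in these cells, so a window without a run says only that these letters are not in it.

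The ribosomal protein mRNAs were, as a body, slightly higher in CSE-KO. Rps15a and Rpl10a rose far above the rest, as did Rps10 and Rpl36al, whose counts were low and whose levels are uncertain. The paralogue Rpl22l1 fell most, but was not called against a 1.2-fold change. The share of ribosomal protein genes in the WT library totals was 0.398%, 0.387% and 0.387%. In the CSE-KO totals it was 0.454%, 0.462% and 0.453%, so every CSE-KO library lay above every WT library. Of 80 genes that passed the filter on low values, 39 were called higher and 3 lower, and 38 were not called. That is 48.8% higher against 38.3% of all 13750 tested genes, and 3.75% lower against 39.0%. In either direction 52.5% of them were called, below the 77.4% of all tested genes. The median log2 fold change was 0.13, and 0.001 over all tested genes. The middle 50% of the genes lay between 0.07 and 0.20, a narrow band beside the -0.47 to 0.40 of all tested genes. These are the values as deposited. Conversion for shared start positions, given below, raised the members' median to 0.16 by main mRNA and to 0.14 by exonic bases. Its effect on the width of the band was not tested.

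**Figure D1:**
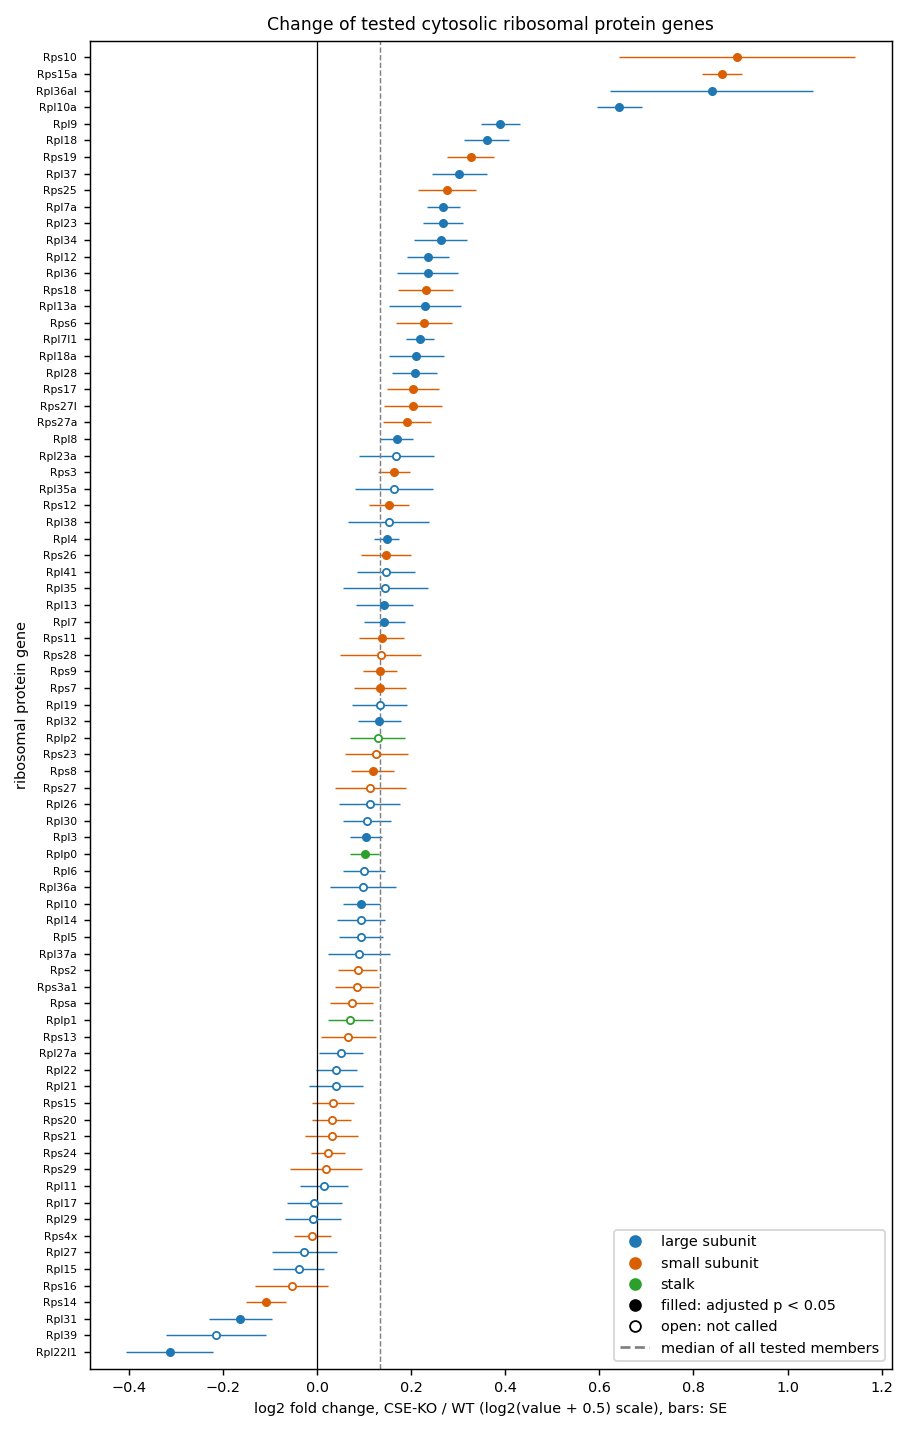
Log2 fold change (CSE-KO over WT, horizontal axis) of 79 of the 80 tested ribosomal protein genes, with bars for the SE, coloured by subunit and filled where the adjusted p was under 0.05. 69 points lie above 0, most of them close to the dashed median of 0.13 of all 80, and Rps10, Rps15a, Rpl36al and Rpl10a stand apart at the top.

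Most members changed in the same direction, and most changes were small. The log2 fold change was positive in 70 of the 80 and negative in 10. In 53 genes every CSE-KO library was above every WT library, in 3 every one was below, and in 24 the groups overlapped. Over all tested genes 80.4% did not overlap, with 40.0% higher and 40.4% lower. The change was under 1.2-fold in 68 of the 80 and in 30 of the 42 that were called. Tested against a 1.2-fold change, 5 ribosomal protein genes (Rps10, Rps15a, Rpl36al, Rpl10a and Rpl9) were called, all higher, while 48.8% of all tested genes were. The counts moved with scaling: 65 were higher and 1 lower when library totals were set equal. With all WT libraries counted as 1 sample, 19 were higher and 0 lower by limma.

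Large and small subunit genes had nearly the same median. Among 45 tested large subunit genes, 21 rose and 2 fell, with a median log2 fold change of 0.14. That is 46.7% and 4.44%, against 38.3% and 39.0% of all tested genes. Among 32 tested small subunit genes, 17 rose and 1 fell, with a median of 0.13. The 3 stalk genes had 1 call, higher, and a median of 0.10. The 30 genes whose introns or exons hold an annotated small nucleolar RNA (snoRNA, a guide of ribosomal RNA modification) included 15 that rose and 0 that fell, and the 50 tested without one included 24 that rose and 3 that fell, with medians of 0.11 and 0.14.

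Rps15a, a protein of the small subunit body, showed the clearest rise. Its gene lies at chr7:118104372-118116188 on the minus strand of mm10. The WT libraries had 328, 308 and 324 normalized counts of it, and the CSE-KO libraries 561, 595 and 588. The groups lay far apart, and the 3 libraries of each stood close together, at 320 ± 10.6 and 581 ± 18.0 (SD, n = 3). On the log2 scale it rose by 0.86 (SE 0.04, adjusted p = 1.5e-08), or 81.5%. The transcript model used for its length had 5130 bases for a coding length of 390, so its level per mRNA length is not compared with that of other genes.

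Rpl10a, the protein of the mobile L1 stalk beside the exit site for spent tRNAs, came next among the well-covered genes (chr17:28328471-28331033, plus strand). It had 385, 346 and 358 counts in WT and 546, 568 and 586 in CSE-KO. All CSE-KO libraries were above all WT libraries, with means of 567 and 363, a log2 fold change of 0.64 (SE 0.05, adjusted p = 3.2e-07).

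Rpl9, a large subunit protein (chr5:65388364-65391444, minus strand), had 374, 368 and 350 counts in WT and 470, 473 and 487 in CSE-KO. Its groups did not overlap, and it rose by a log2 fold change of 0.39 (SE 0.04, adjusted p = 6.1e-06). Rpl18, also of the large subunit, had 301, 277 and 284 counts in WT and 365, 369 and 372 in CSE-KO (log2 fold change 0.36, SE 0.05, adjusted p = 3.5e-05). The spread of Rpl18 was wider in WT (12.3) than in CSE-KO (3.51, both SD, n = 3), and both were small beside the distance between the groups. Its exons overlap Sphk2 on the other strand, which was not called (437 counts in WT, 458 in CSE-KO).

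Rps19, whose mutation is the most frequent cause of Diamond-Blackfan anaemia, had 241, 239 and 232 counts in WT and 305, 295 and 293 in CSE-KO. That is a log2 fold change of 0.33 (SE 0.05, adjusted p = 0.00011), without overlap. Rpl37, a zinc-binding protein of the large subunit that hosts a snoRNA, had 184, 182 and 192 in WT and 228, 225 and 235 in CSE-KO, at 0.30 (SE 0.06, adjusted p = 0.00064). These 6 genes, Rps15a, Rpl10a, Rpl9, Rpl18, Rps19 and Rpl37, were higher in 3 of 3 CSE-KO libraries and stayed called with every single library left out.

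The remaining pair of large rises came from genes with few reads. Rps10, a small subunit protein ubiquitinated when ribosomes collide, had 23, 14 and 29 counts in WT and 40, 36 and 43 in CSE-KO (log2 fold change 0.89, SE 0.25, adjusted p = 0.0071). The groups were apart, but the standard error was far larger than those of Rps15a and Rpl10a. Rpl36al, a close relative of Rpl36a, had 13, 16 and 15 in WT and 29, 28 and 23 in CSE-KO (0.84, SE 0.22, adjusted p = 0.0041). Both genes have exons under another long gene model on the same strand, RPS10-NUDT3 for Rps10 and Gm49383 for Rpl36al. Counting could split or drop such reads, so their levels are uncertain. Rpl24 shares this position, with Gm28037, and was at 5, 5 and 5 counts in WT and 1, 7 and 9 in CSE-KO, too low to be tested. Rpl13a (Gm45713) and Rpl19 (Gm11629) are the other two members with such an overlap, and with these 5 left out 36 genes were higher and 3 lower.

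**Figure D2:**
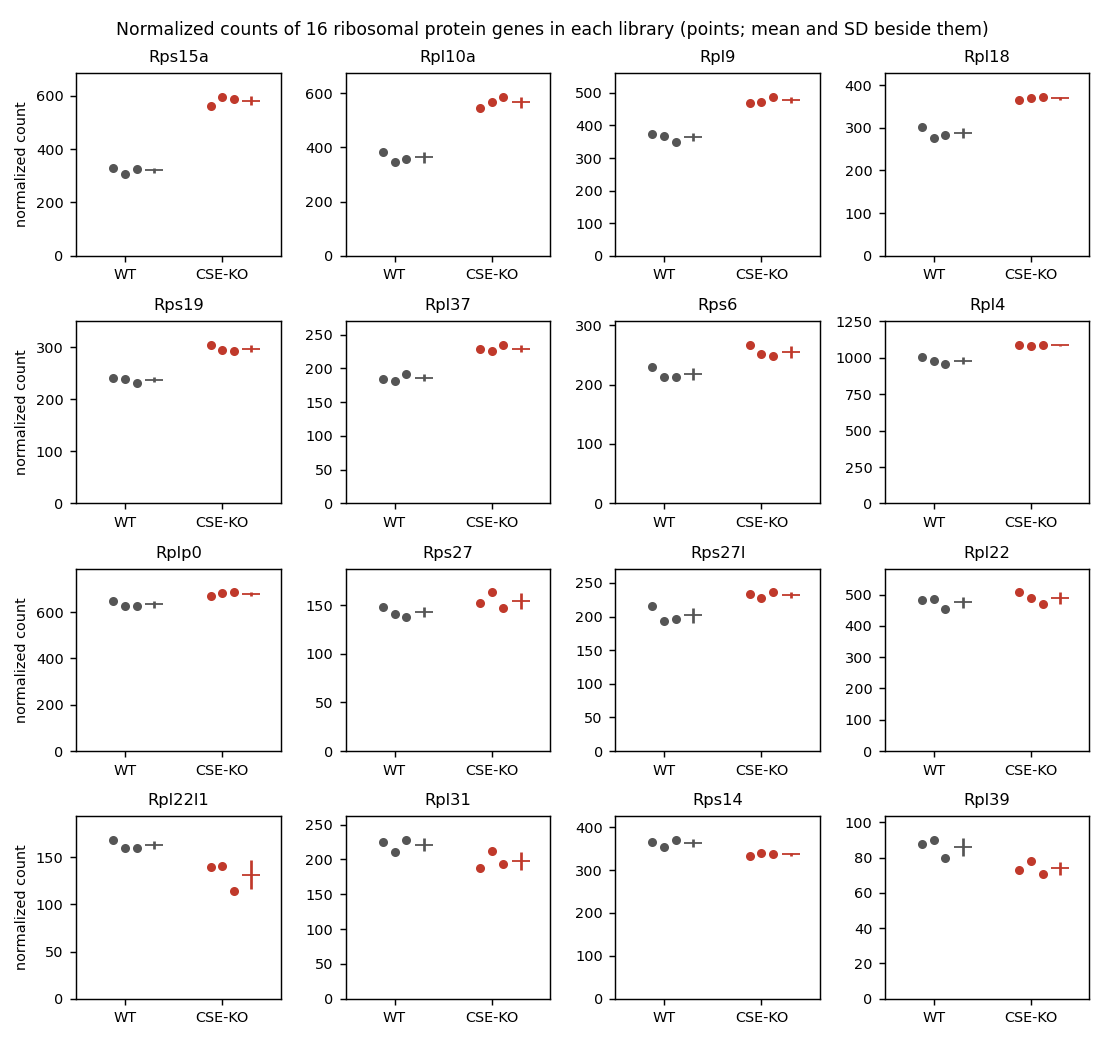
Normalized counts of 16 ribosomal protein genes in each library (points, vertical axis from 0), with the mean and SD (n = 3) beside them, WT in grey and CSE-KO in red. The groups are well apart in Rps15a and Rpl10a, closer in Rpl4 and Rplp0, and overlap in Rpl22, Rps27 and Rpl31.

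Falls were few and small. Rpl22l1, the paralogue of the RNA-binding protein Rpl22, was lower in all 3 CSE-KO libraries, with 168, 160 and 160 counts in WT and 139, 141 and 114 in CSE-KO. Its log2 fold change was -0.31 (SE 0.09, adjusted p = 0.0092), with CSE-KO 3 lowest and the groups apart. It kept its call with each library left out, and lost it when WT counted as 1 sample (adjusted p = 0.11). Rpl31, near the exit of the peptide tunnel, had 225, 211 and 228 in WT and 188, 212 and 193 in CSE-KO, so that CSE-KO 2 stood above WT 2. Its log2 fold change of -0.16 (SE 0.07, adjusted p = 0.044) was no longer called without WT 1 (adjusted p = 0.11), WT 3 (0.13), CSE-KO 1 (0.11) or CSE-KO 3 (0.10). Tbc1d8, which overlaps the exons of Rpl31 on the other strand, fell from 521 to 116 counts. The sources used here do not say how counting treated strand, and its part was not tested.

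Rps14, a small subunit protein at the platform, had 366, 353 and 370 counts in WT and 333, 339 and 338 in CSE-KO, without overlap, at a log2 fold change of -0.11 (SE 0.04, adjusted p = 0.037). It lost its call without WT 1, WT 3 or any 1 of the CSE-KO libraries (adjusted p = 0.063 to 0.11) and with equal totals (0.48). Rpl39, a very short protein that lines the exit tunnel, had 88, 90 and 80 in WT and 73, 78 and 71 in CSE-KO. The groups did not overlap, yet at these counts the log2 fold change of -0.21 (SE 0.11) was not called (adjusted p = 0.086).

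Some members have a paralogue that can take their place in the ribosome. The ratio of Rpl22l1 to Rpl22 counts was 0.348, 0.329 and 0.352 in WT and 0.274, 0.288 and 0.243 in CSE-KO, with every CSE-KO library below every WT library. The fall lay in Rpl22l1, since Rpl22 had 483, 487 and 455 in WT and 507, 490 and 469 in CSE-KO and was not called (log2 fold change 0.04, SE 0.04). The ratio of Rpl36al to Rpl36a was 0.071, 0.0838 and 0.0802 in WT and 0.156, 0.13 and 0.116 in CSE-KO. Rpl36a stood at 187 ± 4.00 in WT and 200 ± 15.0 in CSE-KO (SD, n = 3) and was not called. No test was run on these ratios.

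Rps27l, the p53-responsive relative of Rps27, rose from 202 ± 11.4 to 232 ± 4.04 (SD, n = 3, log2 fold change 0.20, adjusted p = 0.011). Rps27 itself had a log2 fold change of 0.11 and was not called (adjusted p = 0.19), and the ratio of the pair overlapped, at 1.38 to 1.45 in WT and 1.40 to 1.61 in CSE-KO. Rpl7 and its relative Rpl7l1 both rose, by log2 fold changes of 0.14 (adjusted p = 0.012) and 0.22 (adjusted p = 3.6e-05), and their ratio also overlapped. Rpl7 was not called without WT 3 (adjusted p = 0.052). Rpl3, a large subunit protein, went from 623 to 669 counts, a log2 fold change of 0.10 (adjusted p = 0.016). Without WT 2 or WT 3 it was not called (adjusted p = 0.056 and 0.069). Rpl10, which completes the large subunit before the subunits join, rose from 411 to 438 (0.09, adjusted p = 0.046), but was not called without WT 1, 2 or 3 or CSE-KO 2 or 3. The pseudogene Rps4l was no member. X-linked Rps4x, at 395 ± 7.51 in WT and with overlapping groups, was not called (log2 fold change -0.01, SE 0.04), and its sign turned under other scalings. Rpl39l had 0 to 5 counts per library and Rps27rt 0 to 3, and neither was tested.

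The stalk proteins, which recruit the GTPases that drive translation, moved little. Rplp0, the anchor, had 649, 625 and 624 counts in WT and 668, 682 and 685 in CSE-KO, without overlap (log2 fold change 0.10, SE 0.03, adjusted p = 0.013). Rplp1 (281 to 295) and Rplp2 (260 to 284) had log2 fold changes of 0.07 and 0.13 and were not called (adjusted p = 0.20 and 0.063). Rplp2 was called, higher, without WT 1 (adjusted p = 0.023) or CSE-KO 3 (adjusted p = 0.0496).

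Some ribosomal proteins have further known roles. Rps6, the substrate of S6 kinase, had 229, 212 and 213 counts in WT and 267, 251 and 248 in CSE-KO, and rose without overlap (log2 fold change 0.23, SE 0.06, adjusted p = 0.0045). Rps27a, made as a fusion with ubiquitin, had 246, 248 and 260 in WT and 289, 292 and 280 in CSE-KO (0.19, SE 0.05, adjusted p = 0.0051). Rpl5 and Rpl11, which can leave the ribosome and bind MDM2, stood at 388 and 265 in WT and 414 and 268 in CSE-KO. Neither was called (log2 fold changes 0.09 and 0.01), although Rpl5 was called without CSE-KO 3 (adjusted p = 0.029). Rpsa, also known as the laminin receptor, had 405 ± 15.1 in WT and 426 ± 15.1 in CSE-KO, with overlapping groups. Rps24 (451 ± 3.79 and 459 ± 6.66, SD, n = 3) was among the uncalled genes with the highest counts, with a log2 fold change of 0.02 (SE 0.04).

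Levels per length placed most of these genes high. The WT mean per base of the annotated main mRNA had a median of 0.35 over the tested members and 0.12 over 12281 tested protein-coding genes. The members' coding sequences are short, with a median of 453 bases against 1395 for tested protein-coding genes. The highest level per kilobase of mRNA in WT was that of Rpl22 (1002), with Rpl8 (699), Rps15 (668) and Rpl4 (637) also high, and the lowest of tested genes were those of Rps10 (24.8) and Rpl36al (27.9). These genes were picked from their values. The transcript model of Rpl22 has 474 bases, against 2911 exonic bases of the gene, so its rank depends on that model. In counts not divided by length, Rpl4 was highest, with 1008, 976 and 957 in WT and 1090, 1080 and 1087 in CSE-KO.

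**Figure D3:**
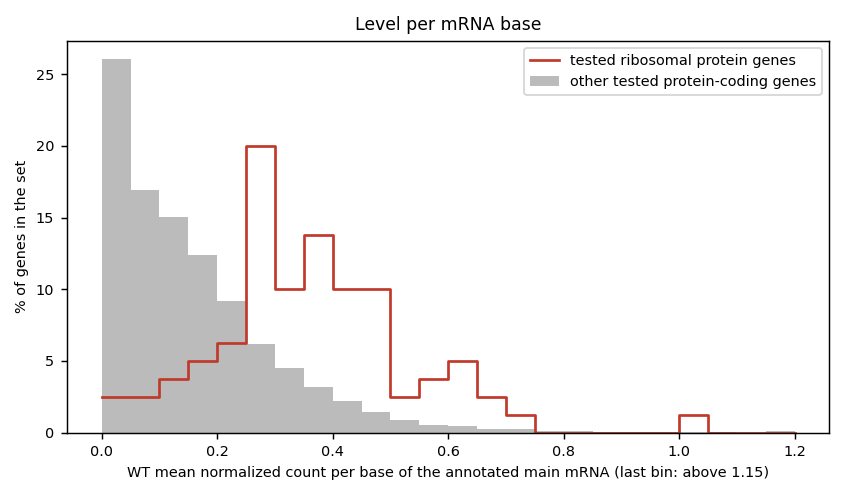
Share of genes (vertical axis, % of each set) by WT mean normalized count per base of the annotated main mRNA (horizontal axis), for the 80 tested ribosomal protein genes (red line) and other tested protein-coding genes (grey bars). The ribosomal protein genes lie to the right, around a median of 0.35, with Rpl22 at 1.00 by its transcript model of 474 bases.

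The replicates of these genes agreed more closely than read counting allows. The squared difference of a replicate pair divided by its sum is 1 on average for counting noise alone. Over the 80 members it was 0.30 to 0.47 between WT libraries and 0.26 to 0.33 between CSE-KO libraries. Over all tested genes it was 0.71 to 0.76 between WT libraries, 0.86 between CSE-KO 2 and 3, and 1.63 and 1.92 between CSE-KO 1 and those libraries. Among genes with few reads per base the WT pairs were at 0.93 to 1.00 and CSE-KO 2 and 3 at 1.10. By this measure the WT libraries differed by no more than sampling noise. CSE-KO 2 and 3 were under 1 over all tested genes (0.86), but above 1 among genes with few reads per base (1.10). All libraries were kept as separate samples in the main counts because the labels number them separately. Differences as small as those between the WT libraries would also arise between repeated libraries of 1 sample. They therefore cannot show that the WT libraries are independent, and the same limit holds for CSE-KO 2 and 3. With CSE-KO 2 and 3 counted as 1 sample, 36 ribosomal protein genes were higher and 2 lower. With WT counted as 1 as well, 17 were higher and 0 lower. The members' median coefficient of variation was 2.93% in WT and 2.32% in CSE-KO, where counting noise alone would give 6.16% and 5.86%.

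The sources used here do not say whether reads sharing a start position were removed. Converting values as if they had been, by the number of start positions in each main mRNA, gave log2 fold changes of 1.13 for Rpl10a, 0.61 for Rpl9 and 0.90 for Rps15a. By all exonic bases of the gene, which are more numerous, they were 0.71, 0.42 and 0.89, with 42 members higher, 3 lower and a median of 0.14. Rps15a was converted with 5130 mRNA or 6270 exonic bases for a coding length of 390. Its small shift is therefore not compared with those of Rpl10a and Rpl9. With the conversion by main mRNA, chosen after seeing the data, 46 members were higher and 3 lower with a median of 0.16. Rpl22 could not be converted because its count exceeded its mRNA length of 474 bases. Over the 18940 genes with a known exonic length, the highest WT mean per exonic base was 0.83. Across the 80 tested members, log2 fold change and level per mRNA base had a Spearman correlation of -0.05, as a description over genes that share libraries and are not independent.

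Genes that build ribosomes had higher medians than the ribosomal proteins. Of all tested genes, 38.3% were called higher and 39.0% lower. Of 60 ribosome assembly factors, 52 rose and 3 fell (86.7% and 5.0%), with a median log2 fold change of 0.38. They included Nop14 of the small subunit processome (523 ± 9.54 to 1138 ± 22.3), the rRNA methyltransferase Nop2 (615 to 1027), and the large subunit factors Brix1 (363 to 661) and Noc3l (390 to 744). Of 16 genes for RNA polymerase I and its factors, 12 rose and 2 fell, with a median of 0.25. Taf1a (197 to 411), Taf1c (169 to 327) and the initiation factor Rrn3 (667 to 904) rose, and Ubtf, which opens ribosomal DNA, fell from 1114 to 912. Of 9 non-coding hosts of snoRNAs, 6 rose and 0 fell, led by Snhg12 with 80, 77 and 82 counts in WT and 229, 233 and 225 in CSE-KO. Snhg1 (209 to 370), Snhg6 (117 to 208) and Snhg5 (165 to 245) followed. All these medians are of the values as deposited. Conversion for shared start positions raised the ribosomal protein median to 0.16 by main mRNA. Its effect on the medians of the other lists was not examined. The difference between these lists and the ribosomal protein genes was not tested.

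**Figure D4:**
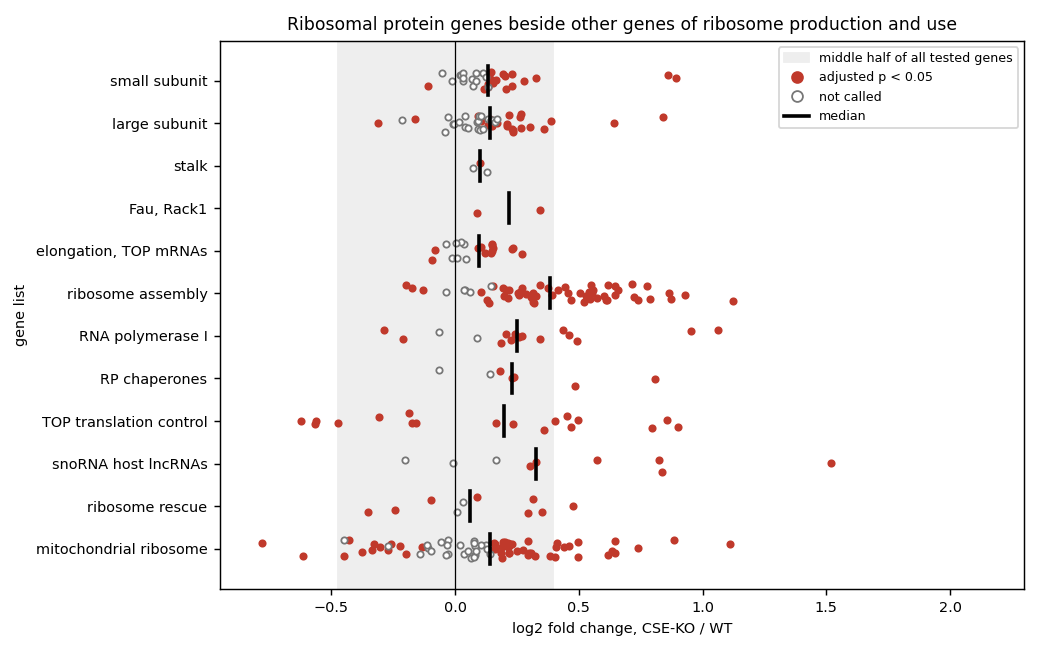
Log2 fold change (CSE-KO over WT, horizontal axis) of the genes of each list (rows), filled red where the adjusted p was under 0.05, with black bars for list medians and a grey band for the middle 50% of all tested genes. Ribosomal protein genes crowd around medians of 0.13 and 0.14, while ribosome assembly factors spread to the right around 0.38.

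Dedicated carriers of ribosomal proteins rose in 5 of 7 cases and fell in 0, with a median of 0.23. All tested genes rose in 38.3% of cases and fell in 39.0%. Pdcd2, which escorts a small subunit protein, went from 118, 120 and 118 counts in WT to 225, 206 and 195 in CSE-KO. Tsr2, the escort of Rps26, rose from 216 to 303, Heatr3, an importer of Rpl5, from 525 to 616, and Aamp from 723 to 821. Of the proteins they carry, Rps26 rose (log2 fold change 0.15) and Rpl5 was not called. Of the other proteins of the mature ribosome, Fau, made as a fusion with the small subunit protein eS30, had 210, 201 and 205 in WT and 259, 261 and 261 in CSE-KO. That rise (log2 fold change 0.34, SE 0.05, adjusted p = 0.00012) was above the ribosomal protein median of 0.13. Rack1, a scaffold protein on the small subunit, rose from 923 to 981.

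Elongation factors and other mRNAs of the TOP class had a median of 0.10, with 11 of 20 higher and 2 lower. Eif3e (618 to 746), Npm1 (774 to 911), Eif3k (403 to 473) and Eif3h (512 to 567) rose with the smallest adjusted p. Among the elongation factors, Eef1d and Eef1g rose, Eef2 fell (2412 to 2264), and Eef1a1 and Eef1b2 were not called. Genes of TOP translation control moved both ways, with 10 of 18 higher and 8 lower, as did all tested genes (38.3% higher and 39.0% lower). Of the mTORC1 restrainers, Sesn2 (648 to 1175), Tsc1 (476 to 827) and Ddit4 (444 to 609) rose. Tsc2 (1032 to 700) and Deptor (85.3 to 56.3), also restrainers, fell. Of mTORC1 itself, Mtor (1372 to 990), Rptor (1039 to 912) and Mlst8 (386 to 312) fell. Rheb, also of the control list, rose from 435 to 614. Larp1 rose from 1543 to 1730. The cap-binding protein Eif4e rose from 419 to 782. Of the translation repressors that bind it, Eif4ebp2 fell from 1409 to 916 and Eif4ebp1 rose from 512 to 657. Ribosome rescue genes had 5 of 10 higher and 3 lower, near the shares of all tested genes. Abce1, which splits ribosomes, rose from 1182 to 1508, Zfp598, which ubiquitinates Rps10 on collided ribosomes, from 632 to 786, and Nemf from 651 to 798, while Gcn1 fell from 1507 to 1180.

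Mitochondrial ribosomal protein genes were compared by the same counts. Of 77, all tested, 39 rose and 13 fell (50.6% and 16.9%, against 38.3% and 39.0% of all tested genes). Their median log2 fold change was 0.14, close to the 0.13 of the cytosolic set. They ranged from -0.78 to 1.11, the cytosolic genes from -0.31 to 0.89. Processed copies and pseudogenes of cytosolic ribosomal proteins numbered 115 in the table, of which 29 passed the filter, and 4 of those rose and 1 fell. Their summed counts were 935 to 966 in WT and 1068 to 1124 in CSE-KO, small beside the 23335 to 24095 and 26101 to 26321 of the ribosomal protein genes, and reads could be split between a gene and its copies.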

How the data were processed

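RNA was sequenced from 3 WT and 3 CSE-KO libraries of mouse lung endothelial cells. Per the labels' protocols, 300 ng of total RNA went into a stranded mRNA kit and 75 bp single-end reads were taken on a NextSeq 500. The submitters' processing notes name, without roles, DESeq2 1.26.0, featureCounts 1.6.5, Picard 2.21.7, STAR 2.7.3a, Trimmomatic 0.39 and the build mm10. The deposited table holds whole-number scores, which were read as normalized counts from their values, since no header or label states the unit; depth in reads is therefore known only approximately. Because the values are not raw counts, limma 3.58.1 (R 4.3.3) was run on log2(value + 0.5) for 13750 genes with at least 10 in at least 3 libraries (trend, robust, two-sided). P-values were adjusted by Benjamini-Hochberg over all tested genes, and a gene was called under 0.05. Fold changes on this scale understate low genes. The model was also run on simulated data, in which far fewer genes changed than the 77.4% called here. That run does not test the calls reported above. Some genes are counted but not reported here by name. Lengths and overlaps came from GENCODE mouse release 21, and start windows from RefSeq GRCm38.p6.

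The genes and lists were chosen with earlier results of these data known. Named were stalk genes, paralogue pairs, Rpl5, Rpl11, Rps6, Rpsa, Rps27a, and the 8 largest rises and up to 8 falls among called genes. Also named were the uncalled genes of highest level, and up to 4 genes of each other list with the smallest adjusted p. Rpl4, Rpl8, Rps15, Rps26, Rpl28, Tsc2, Deptor, Ddit4, Mtor, Rptor, Mlst8, Rheb, Larp1 and Eif4ebp1 were named after their values were seen. So were the Eef genes, single mural and fibroblast markers and genes with overlaps. Alternatives covered scaling, filter, pseudocount, replicate block, variance model, a 1.2-fold test, each library left out, libraries merged, removed overlaps and conversions for shared start positions.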

Additional observations from a re-analysis of the deposited data

How the results depend on the processing

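The members' median log2 fold change stayed positive under every alternative for which it was computed, which leaves out only the one without overlapping members. The replicate block, the variance model and the 1.2-fold test could not move this median. They left the log2 fold changes as they were, with a median of 0.13. With equal library totals 65 members were higher and 1 lower, with a median of 0.21; with upper-quartile scaling 54 were higher and 1 lower, with a median of 0.18; with size factors made without ribosomal protein genes 43 were higher and 1 lower. The all-gene median moved with these scalings too, to 0.075 with equal totals and 0.049 with upper-quartile scaling. Tested against a 1.2-fold change, 5 members were higher and 0 lower, and 6711 of all genes were called. With each library left out, 31 to 37 members were higher and 1 to 3 lower, 10137 to 10636 of all genes were called, and the median was 0.12 to 0.15. With the WT libraries as 1 sample 19 were higher and 0 lower, and with CSE-KO 2 and 3 also as 1 sample 17 and 0; fewer samples enter these fits. The share of the total was 0.397% in WT and 0.471% in CSE-KO after conversion for start positions by exonic length. Rps4x had a log2 fold change of 0.06 with equal totals, 0.037 with upper-quartile scaling, 0.00078 with size factors without ribosomal protein genes and, with single libraries left out, -0.025 (without WT 2) to 0.0025 (without WT 1), against -0.01 as reported. Rpl11 was at -0.0020 without WT 3, -1.0e-05 without CSE-KO 1 and up to 0.035 without CSE-KO 3. With a replicate block 36 members were higher and 1 lower, and Rpl31, Rps14 and Rpl10 lost their calls (adjusted p = 0.076, 0.063 and 0.069). Deviations of libraries with the same number correlated at -0.00079, 0.020 and 0.011, so the numbers were not taken to pair the libraries. Of the named genes' values under the alternatives, 537 kept direction and call, 65 lost the call, 19 gained it and 6 changed sign; the cause was not tested. Counts near 15 to 30 limit Rpl36al and Rps10, as their standard errors show.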
